A study of Mus musculus with 10 samples.

Results

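The footprint that activation-induced deaminase (AID) leaves in DNA when uracil is not removed was read in a fragment of the immunoglobulin switch region Smu, by comparing UNG-/- with AID-/- mouse B cells. Members were the positions listed as C or G in the tables of the UNG libraries, without 5 polymorphic positions and without position 560, where coverage was low. This left 243 C:G positions (90 listed as C and 153 as G) of 554 positions used and 560 in the fragment. There were 4 UNG-/- libraries and 2 AID-/- libraries, and 4 UNG+/+ libraries of the same series served 1 comparison. Both mutant genotypes differ from UNG+/+ at 1 named gene each, UNG (uracil-DNA glycosylase) or AID, and the labels give no strain, age or promoter. Spleen B cells of every genotype had been stained with 5 µM CFSE, a dye that is diluted at each division, and activated over 4 days by BAFF at 20 ng/ml together with IL4 at 10 ng/ml and the bacterial product LPS at 25 µg/ml. Cells of all groups were sorted after 5 or more divisions, so the data describe dividing, activated cells and not resting ones. Only DNA of 1 fragment was sequenced, so marker transcripts of B cells could not be checked here.

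AID is the enzyme that starts somatic hypermutation and class switch recombination in B cells, and it does so by turning cytosine in DNA into uracil. UNG takes that uracil out, and error-prone filling of the gap can then leave any base. A uracil that stays is copied as thymine, so an unremoved uracil is read as a C:G to T:A transition. AID is known to act most on cytosines that follow an A or T and then a purine (the WRC hotspots, here AAC, AGC, TAC and TGC with the cytosine last) and least on those that follow a G or C and then a pyrimidine (the SYC coldspots, here CCC, CTC, GCC and GTC).

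A position was read on the strand that carries its cytosine. A position listed as G therefore stands for a cytosine of the opposite strand. Of 242 positions with both preceding bases inside the fragment, 74 were hotspots, 63 were coldspots and 105 were intermediate, that is, in the remaining 8 contexts. A name such as C282 gives the listed base and the position in the deposited tables, since the sources used here give neither genome build nor coordinates. The windows below run 5′ to 3′ on the strand that carries the cytosine, with 10 bases on either side of it. Capitals mark the cytosine, last, and the 2 bases before it. The first set holds 3 different hotspot contexts at the 3 positions that carried the most transitions.
G40: tccctcctTACtgattctaaa
C506: atgcgctaAACtgaggtgatt
C282: aaggccacAGCtgtacagaat

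The second set shows hotspot cytosines that carried the fewest transitions among those tested. C263 and G264 are neighbouring positions on opposite strands.
C263: ggtatggaTACgcagaaggaa
G264: cttccttcTGCgtatccatac
G163: ttactggcAACttcaaattca

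The third set shows cytosines outside the hotspots. G232 and G436 were the highest positions of the CAC and CGC contexts, G371 was the highest coldspot position and G469 was the highest in the lowest context.
G232: tcctctcaCACtcacctcgga
G436: tagagcctCGCttactagggc
G371: ctggctttCTCtgtctgggtc
G469: gaagcccaCCCatctcagctc

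Depth was high in all 6 libraries, with 113425148 to 221955784 quality-filtered base reads and a median coverage of 152658 to 377685 reads per position. Coverage fell toward the end of the fragment, to a median of 36460 reads over positions 491 to 560. Values are transitions per 10000 quality-filtered reads, each position weighing alike, and the excess is what remains after the AID-/- mean is subtracted. Because PCR copies were not told apart by molecular identifiers, differences among libraries of a group, rather than read counts, set the error. That no label ties each library to its own animal means that p-values measure only how these libraries vary, and part of that may be technical. At position 225 a second base made up 48.0, 48.2 and 45.7% of reads in UNG-/- libraries 1, 2 and 4, but 0.193% in library 3. At position 486 it was 41.9 to 44.4% in the same libraries and 0.130% in library 3. The AID-/- libraries were listed with other bases at all 5 polymorphic positions, so haplotype and genotype cannot be told apart in the comparison with them. UNG-/- library 3 alone, which lacked the second bases, had a transition excess of 24.1 per 10000.

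Averaged over C:G positions, C:G to T:A transitions were 23.7-fold higher in UNG-/- than in AID-/- cells. The excess was 25.5 per 10000 by the mean over positions and 4.93 by the median. UNG-/- libraries 1 to 4 had 29.9, 31.8, 25.2 and 19.4 transitions per 10000 reads at C:G positions, a mean of 26.6 ± 5.54 (SD, n = 4). The AID-/- libraries had 1.08 and 1.16. Every UNG-/- library lay above both AID-/- libraries, and the permutation p was 0.0667 (exact, two-sided). This is the smallest p that 15 assignments of 4 against 2 can give, so no comparison of single values between these groups could pass 0.05. UNG-/- libraries 1 and 2 had a lower share of bases passing the quality filter than libraries 3 and 4 (97.92 and 97.95% against 98.90 and 98.68%), as did AID-/- library 1 against library 2 (98.23 and 99.01%). Within these quality pairs the excess was 29.8 and 21.2 per 10000.

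Summed over all C:G positions, these fractions amount to 0.727, 0.772, 0.613 and 0.471 transitions per copy of the fragment in UNG-/- libraries 1 to 4, against 0.0263 and 0.0281 in AID-/- libraries. Hotspots, 30.6% of the positions, held 86.2% ± 0.269 (SD, n = 4) of the excess, and coldspots, 26.0% of the positions, held 1.69% ± 0.102. The 10 highest positions held 32.1% ± 0.207 of it, and 20 or 21 positions sufficed for 50% in each library. The total differed 1.64-fold between the highest and the lowest UNG-/- library, while these shares stayed within 1 percentage point between libraries.

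Transversions, which UNG activity can produce, were not above the AID-/- level in total. C:G to G:C substitutions were 0.319, 0.397, 0.415 and 0.450 per 10000 in UNG-/- libraries and 0.426 and 0.472 in AID-/- libraries, and the groups overlapped (exact two-sided permutation p = 0.333). C:G to A:T substitutions were 1.60, 1.58, 2.59 and 1.99 in UNG-/- libraries and 2.67 and 2.96 in AID-/- libraries. All 4 UNG-/- libraries lay below both AID-/- libraries in this type, a ratio of 0.690, and the exact p was 0.133. The difference was -0.874 per 10000 over all libraries, -1.08 and -0.672 within the quality pairs, and -0.222 with UNG-/- library 3 alone. At A:T positions, where no cytosine is present, A:T to G:C transitions averaged 0.618 ± 0.0464 in UNG-/- cells (SD, n = 4) and 0.630 in AID-/- cells (exact p = 0.8).

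Position by position, the difference was spread over most C:G positions. The edgeR quasi-likelihood test was fitted to all substitutions at all positions with coverage as offset, and called a position at a Benjamini-Hochberg adjusted p of 0.05. C:G to T:A transitions were higher in UNG-/- cells at 195 of 236 positions tested (82.6%), against 17.6% of all 1185 position and substitution features. Of all features 0.422% were lower in UNG-/- cells, and transitions were lower at 0 of the 236 positions (0 also at an unadjusted p of 0.05, with DESeq2 and with limma). At 212 of the 236 (89.8%, against 23.1% of all features) the groups did not overlap and UNG-/- was the higher. In the self-test of this fit on 1185 simulated features, 94% of 4-fold changes but 14% of 2-fold rises were recovered, so a position that did not pass may still differ by a small factor. The 7 C:G positions not tested had too few substituted reads, and all lay between positions 537 and 559, in the stretch of lowest coverage.

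Calls followed the sequence class. Transitions rose at 73 of 73 hotspot positions tested, with a median log2 fold change of 5.62. They rose at 97 of 104 intermediate positions, with a median of 3.01, and at 25 of 59 coldspot positions, with a median of 0.92. The 7 intermediate positions that did not pass, listed after their values were seen, were C52, C66, C211, C224, G328, G329 and C363, and their excess was 0.332 to 1.71 per 10000. Over positions, the excess ran from 6.17 to 291 in hotspots (median 50.6), from 0.332 to 81.6 in intermediate contexts (median 4.19) and from -0.545 to 11.3 in coldspots (median 0.563). The classes thus overlapped position by position, and 34 of 105 intermediate positions exceeded the lowest hotspot position. A single one of them, G232, exceeded the hotspot median.

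**Figure D1:**
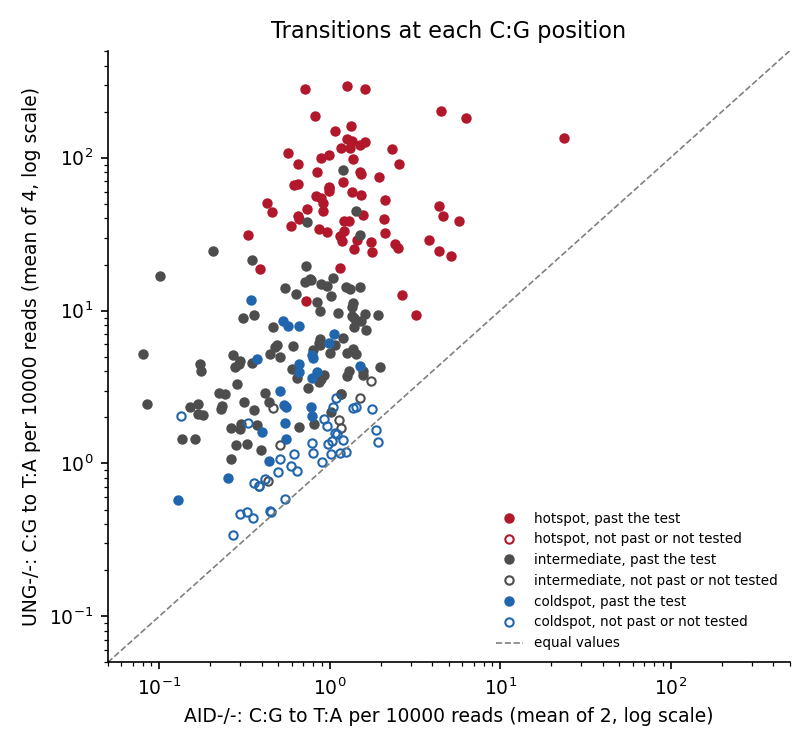
Mean C:G to T:A transitions per 10000 reads in 4 UNG-/- libraries (vertical) against 2 AID-/- libraries (horizontal), on log axes, for the 241 C:G positions above 0 in both groups. Each point is a position, coloured by class and filled where the edgeR test called it, and the dashed line marks equal values. Hotspot positions lie far above the line, and the open points near it are mostly coldspots.

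The 2 bases before the cytosine ordered the contexts over a 210-fold range of mean excess. AGC, the hotspot context with the most positions, came first with an excess of 80.2 per 10000 over 31 positions. Its transitions were 91.8, 98.3, 80.8 and 59.6 in UNG-/- libraries 1 to 4 and 2.24 and 2.58 in AID-/- libraries. AAC followed with an excess of 77.5 over 13 positions, from 91.0, 96.3, 69.6 and 56.6 in UNG-/- and 0.862 and 0.911 in AID-/- libraries. Before subtraction AGC was above AAC in 4 of 4 libraries and in excess it was above in 3 of 4. The means differed by less than the SD of either, 17.0 and 18.5. These SDs include the level of each library, which moves all contexts together, so they do not measure a difference within libraries. TAC had an excess of 73.2 over 17 positions and stood below AAC in 4 of 4 libraries, although the difference was again smaller than the SD. By mean excess TGC was the lowest hotspot context, with 53.1, 56.3, 47.9 and 35.2 in UNG-/- and 2.41 and 2.68 in AID-/- libraries. Its excess of 45.6 over 13 positions was below that of TAC in every UNG-/- library. By the median over positions TAC was the lowest, with an excess of 63.1 for AGC, 43.8 for AAC, 36.8 for TGC and 35.1 for TAC. The libraries share these positions, so their agreement does not show that the order would hold at other sites.

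Among intermediate contexts, those that keep a purine before the cytosine but start with C came next. CAC had an excess of 21.4 over 11 positions, with 26.2, 27.3, 20.4 and 16.6 in UNG-/- libraries. CGC had 18.6 over 4 positions, with 20.8, 24.3, 18.4 and 14.4. By the median over positions CGC stood above CAC, with an excess of 16.1 against 12.8. Both contexts that start with G and then a purine were lower, with 5.18 for GGC over 16 positions and 3.42 for GAC over 9 positions. The intermediate contexts with a pyrimidine before the cytosine had 8.11 for ATC, 6.67 for ACC, 4.28 for TCC and 3.17 for TTC. With the purine or pyrimidine next to the cytosine held apart, contexts that began with A stood above those that began with G in all 4 such pairs (AGC and GGC, AAC and GAC, ATC and GTC, ACC and GCC).

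The coldspot contexts were not alike. CTC had an excess of 3.40 over 25 positions, above that of the intermediate context TTC in 3 of 4 libraries. The other coldspot contexts had 0.710 (GTC), 0.517 (GCC) and 0.382 (CCC) per 10000. CCC, the lowest, had 0.955, 1.11, 1.01 and 0.960 in UNG-/- libraries against 0.637 and 0.615 in AID-/- libraries, so even there every UNG-/- library was higher. The edgeR calls split the same way, with 18 of 24 CTC positions higher but 3 of 9 GTC, 1 of 14 GCC and 3 of 12 CCC positions.

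The groups did not overlap in any of the 16 contexts, UNG-/- being higher, and the permutation p was 0.0667 in each (exact, two-sided) and 0.0667 after Benjamini-Hochberg adjustment over the 16. The order of neighbouring contexts was the same in all 4 UNG-/- libraries for 10 of 15 neighbours. The neighbours whose order changed between libraries were AGC and AAC, GAC and CTC, CTC and TTC, GTC and GCC, and GCC and CCC. Contexts are not independent of position, since each is the mean of 4 to 31 sites of 1 fragment.

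**Figure D2:**
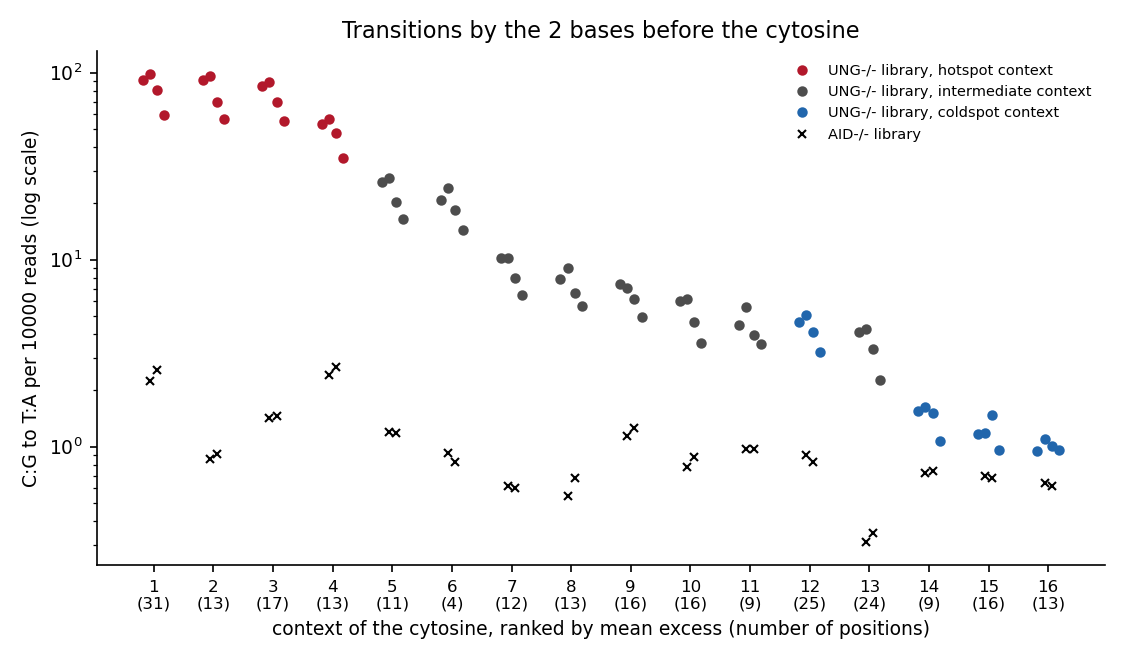
C:G to T:A transitions per 10000 reads (log axis) in the 16 contexts formed by the bases before the cytosine, ranked from 1 to 16 by mean excess in the order given in the text, with the number of positions in parentheses. Each circle is a UNG-/- library, coloured by class, and each cross an AID-/- library. The 4 hotspot contexts fill ranks 1 to 4, from AGC to TGC, and UNG-/- libraries lie above the AID-/- libraries at every rank.

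AID-/- cells also had more transitions at hotspots than elsewhere, at a far lower level. The ratio of hotspot to other C:G positions, without subtraction, was 12.6-fold in UNG-/- cells, a log2 value of 3.65 ± 0.0243 (SD, n = 4), and 2.54-fold in AID-/- cells, with log2 values of 1.29 and 1.41. The difference of 2.31 on the log2 scale came with a permutation p of 0.0667 (exact, two-sided) and no overlap. Within AID-/- cells the order of hotspot contexts was another, with 2.55 per 10000 at TGC, 2.41 at AGC, 1.44 at TAC and 0.887 at AAC. C530, an AGC position named after its values were seen, had the highest AID-/- value, 21.9 and 25.6, against 138, 156, 123 and 118 in UNG-/- libraries. Over the 243 positions, Spearman's rho between pairs of UNG-/- libraries was 0.965 to 0.978, and between UNG-/- and AID-/- libraries 0.426 to 0.513. These describe positions of 1 fragment that share sequence and coverage.

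The highest hotspot positions stood several-fold above others of the same class. G40, a TAC position, had 337, 343, 278 and 211 transitions per 10000 in UNG-/- libraries 1 to 4 and 1.37 and 1.16 in AID-/- libraries, a log2 fold change of 7.85 ± 0.344 (SE; edgeR adjusted p = 1.89e-11). C506, an AAC position, had 337, 337, 241 and 215 against 0.537 and 0.894, a log2 fold change of 8.56 ± 0.424 (adjusted p = 5.55e-11). C282, in AGC context, had 325, 361, 246 and 193 against 1.68 and 1.54, a log2 fold change of 7.44 ± 0.377 (adjusted p = 5.55e-11). Thus 1.93 to 3.61% of reads carried a transition at these 3 cytosines, and UNG-/- library 4 was the lowest at all of them. C287 and G315 followed with an excess of 196 and 185, then C546 with 175, where the lowest coverage of a UNG-/- library was 5776 reads. The other positions of the highest 10 were G461, G529, G281 and G456, with an excess of 160, 148, 130 and 127. G456 and G461 lie 1 and 6 bases from polymorphic positions, and at G456 UNG-/- library 3 was the highest, with 172 against 127, 130 and 82.9.

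At the other end, hotspot context went with few transitions at some positions. C263 (TAC) had 10.2, 10.5, 10.4 and 6.31 in UNG-/- libraries and 2.97 and 3.43 in AID-/- libraries, a log2 fold change of 1.55 ± 0.350 (edgeR adjusted p = 0.00225). G264 (TGC) had an excess of 10.0, G163 (AAC) 10.8 and G325 (TGC) 17.6, each past the test. Without AID-/- library 1 the call at C263 was lost (edgeR adjusted p = 0.0563). In their windows, C263 and G264 are both followed by G. G556, with 15 bases of sequence around it and 2.85, 13.1, 2.18 and 12.1 transitions per 10000, had too few reads to be tested.

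Some cytosines outside the hotspots exceeded many inside them. G232, in CAC context, had 101, 106, 60.4 and 64.3 in UNG-/- libraries and 1.09 and 1.29 in AID-/- libraries, a log2 fold change of 6.11 ± 0.390 (edgeR adjusted p = 4.84e-10). G436 (CGC) had an excess of 37.3, G300 (TTC) 24.4, G466 (ATC) 21.1 and G524 (ACC) 16.7. The highest positions of the other intermediate contexts, C442 (GGC), C383 (GAC) and G411 (TCC), had 15.2, 14.6 and 12.1. Each of these 8 rose past the test. The 5 highest coldspot positions, G371, C481, G238, C520 and G305, were all CTC, with an excess of 6.01 to 11.3, and each rose past the test. The highest GTC and CCC positions, G307 and G469, had 1.86 and 1.58 and rose as well, although G469 lost its call without AID-/- library 2 (edgeR adjusted p = 0.0851). G538, the highest GCC position, had 1.90 and was not tested.

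**Figure D3:**
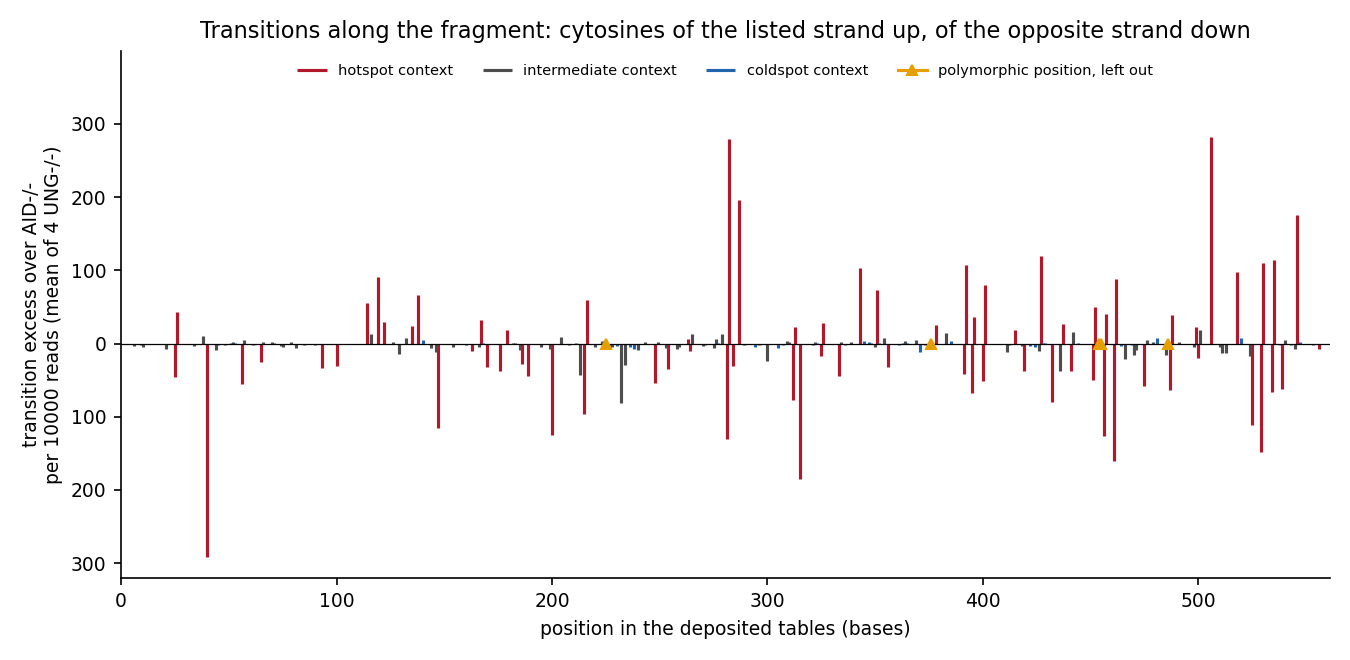
Transition excess of UNG-/- over AID-/- cells per 10000 reads (mean of 4 libraries) at each C:G position along the fragment, as numbered in the deposited tables, with values under 0 drawn at 0. Bars up are cytosines of the listed strand and bars down cytosines of the opposite strand, coloured by class, and triangles mark the 5 polymorphic positions left out. The highest bars, at 40, 282 and 506, are hotspots on both strands.

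The base after the cytosine also went with the level. Among hotspots, the mean excess was 90.1 ± 19.4 per 10000 before T (33 positions), 67.4 ± 14.2 before C (18), 58.9 ± 12.8 before A (18) and 17.1 ± 3.97 before G (5 positions; SD over 4 libraries each). Every hotspot position tested was called in all 4 of these sets, with a median log2 fold change of 6.54, 5.24, 5.39 and 2.48 in the same order. Matched for context, the log2 ratio was 0.69 ± 0.0481 for T over A, 0.51 ± 0.0363 for T over C and 2.41 ± 0.0739 for T over G (SD, n = 4). T was higher in 4 of 4 libraries in each comparison, where an exact sign-flip test of 4 libraries cannot give less than its p of 0.125. These ratios pool the contexts. T was above C in AAC, AGC and TGC. In TAC it was below C in 4 of 4 libraries, with an excess of 81.1 over 8 positions against 90.5 over 3. The T set depended on few sites: the log2 ratio of T over the other bases together was 0.76, and 0.31 without the highest position of each context.

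Outside the hotspots T was again above A and C, but A stood above C there, the reverse of the pooled hotspot means. That hotspot order was not common to the 4 contexts. C was above A in AAC (59.9 against 37.5) and TAC (90.5 against 63.4). A was above C in TGC (49.7 against 28.8), and AGC had 70.5 before A and 70.3 before C. Intermediate positions had 8.74 ± 2.17 before T (50 positions), 7.52 ± 1.64 before A (26) and 4.28 ± 0.985 before C (28). Coldspots had 2.74 ± 0.851 before T (20), 1.40 ± 0.222 before A (28) and 0.822 ± 0.290 before C (12). Only 4 cytosines outside the hotspots were followed by G, 1 intermediate and 3 coldspot positions, and 0 of these 4 were called. Matched for context over all non-hotspots, the log2 ratio was 0.83 ± 0.152 for T over A and 1.19 ± 0.0286 for T over C (SD, n = 4), again in 4 of 4 libraries. The T over G value of 4.35 ± 2.39 rested on those 4 positions.

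**Figure D4:**
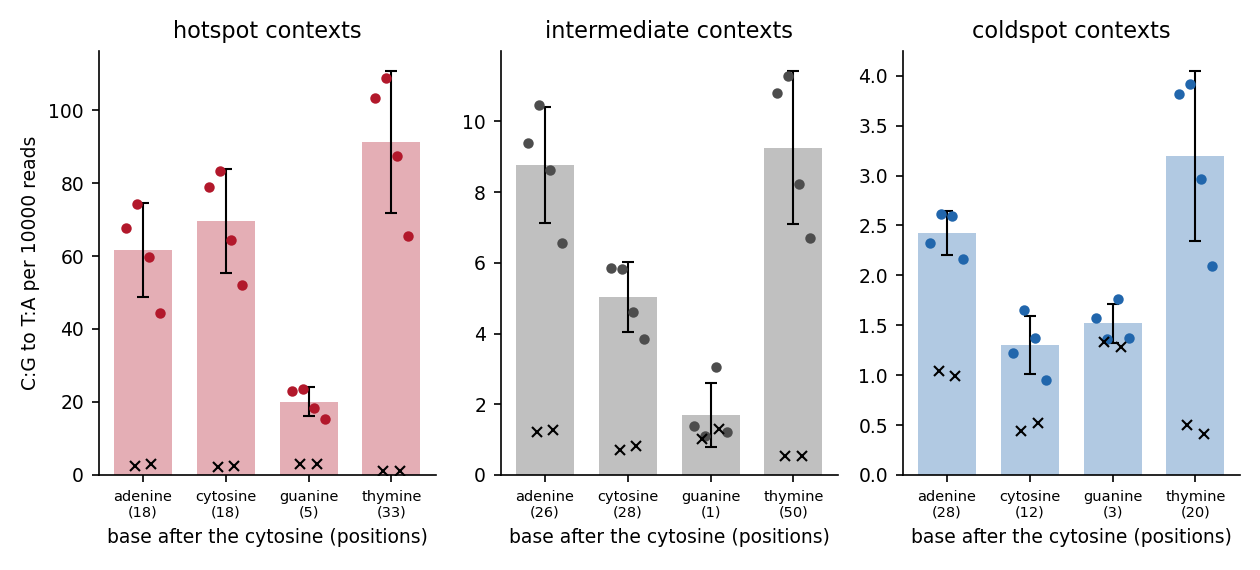
C:G to T:A transitions per 10000 reads by the base after the cytosine, in hotspot, intermediate and coldspot contexts, with a separate vertical scale for each class. Bars and error lines are the mean ± SD of 4 UNG-/- libraries (circles), and crosses are the 2 AID-/- libraries. In hotspots thymine has the highest bar and guanine, with 5 positions, the lowest.

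With the second following base added, a split made after the values were seen, hotspot cytosines before TG had the highest mean excess, 127 ± 28.8 per 10000 over 13 positions, and ranged from 17.6 to 291. G40, C506, C282, G315, G281 and G456 belong to this set, as the windows of G40, C506 and C282 show. The sets before TC, CA and AG had 95.7, 81.9 and 70.7 over 5, 7 and 5 positions. By mean, the remaining sets with a following T were below CA and AG. They had 61.1 before TA over 4 positions and 54.0 before TT over 11. By the median over positions AG had 30.2, CA 73.1, TA 61.6 and TT 45.4. The 5 hotspot cytosines before G were 6.17 to 26.1.

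Copies of the same short sequence differed from each other as well. TACTG occurred at G40, G170 and G356, with an excess of 291, 31.7 and 32.2 per 10000. G170 had 36.1, 42.4, 28.4 and 23.6 in UNG-/- libraries, and G356 had 37.6, 41.0, 35.1 and 19.8, so G40 was above both copies in every library. AGCTG occurred at 6 positions, with an excess of 40.6 to 279, and AGCCA at 3, with 24.9 to 175. TTCTT, an intermediate context, ran from 1.28 to 24.4 over 5 copies. Copies of 7 bases with the cytosine in the middle were fewer: CAGCTGT had 130, 279 and 127 at G281, C282 and G456, and AAGCCCA had 58.2 and 62.0 at G475 and G539. These repeats were chosen after the values were seen, and the cause of the differences was not tested.

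AGCT holds a hotspot cytosine on either strand, which allows a comparison of strands within the same 4 bases. Of 6 such sites, the cytosine of the listed strand was higher in 4 of 4 libraries at 3 sites, with 279 at C282 against 130 at G281, 107 at C392 against 41.1 at G391, and 114 at C535 against 66.5 at G534. It was lower in 4 of 4 libraries at 2 sites, with 40.6 at C457 against 127 at G456 and 88.5 at C462 against 160 at G461. G25 and C26 had 45.4 and 43.5, which differed by less than their SDs over libraries, and C26 was the higher in 1 of 4 libraries. The site of G456 and C457 includes the polymorphic position 455.

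Matched for context, C and G positions did not differ in 1 direction. Of 14 contexts with at least 2 positions on each strand, the mean excess was higher at C in 4 and at G in 10. AAC and AGC were higher at C in 4 of 4 libraries, with 104.8 against 60.5 per 10000 for AAC and 90.5 against 70.5 for AGC, and so was the coldspot context CTC. TAC, TGC and 6 intermediate contexts were higher at G in 4 of 4 libraries, with 66.1 at C against 78.1 at G for TAC, 35.7 against 54.1 for TGC, 11.4 against 25.2 for CAC, 2.50 against 7.92 for ACC and 1.03 against 5.36 for TCC. Each of these means rests on 2 to 19 positions, and positions of a context differed widely among themselves. CGC, 1 of the 6 intermediate contexts, has 2 positions on each strand and had 16.1 at C against 21.1 at G. Without the highest position of each strand it reversed, to 13.6 against 4.91. The other contexts with 4 of 4 libraries in 1 direction kept it. When the mean at C over contexts was divided by the mean at G, which gives the hotspot contexts the most weight, the log2 ratio of excess was 0.0704, 0.0101, -0.0647 and -0.0021 in UNG-/- libraries 1 to 4, a mean of 0.0034 ± 0.0554 (SD, n = 4), with 2 of 4 above 0 (exact sign-flip p = 0.75). This value near 0 sums contexts that went opposite ways. Without matching it was 0.474 ± 0.0560 and above 0 in 4 of 4 libraries. The strands differ in content, since 33 of 90 C positions but 41 of 153 G positions were hotspots. In the 4 hotspot contexts alone the matched value was 0.168 ± 0.0748, above 0 in 4 of 4 libraries (exact sign-flip p = 0.125). Without subtraction the matched ratio was 0.0143 in UNG-/- and 0.249 in AID-/- cells, and the difference of -0.234 had a permutation p of 0.0667 (exact, two-sided). With the median over positions in place of the mean that difference turned to 0.0395. The AID-/- ratio includes C530, an AGC position listed as C, with 21.9 and 25.6 per 10000 in AID-/- libraries, the highest values there. Transitions at hotspots rose at 33 of 33 C positions and 40 of 40 G positions tested.

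Along the fragment, the mean level differed between bins, also relative to context. In 8 bins of 70 bases, transitions in UNG-/- cells averaged 20.8, 18.5, 23.2, 14.5, 34.2, 21.9, 31.3 and 47.5 per 10000 from the first to the last bin, and the AID-/- means were 0.653 to 2.00. Relative to the mean of the same contexts over the whole fragment, the ratios were 1.20, 0.634, 0.697, 0.849, 1.40, 0.736, 1.00 and 1.35. The ratios of positions 281 to 350 and 491 to 560 were above 1 and those of 71 to 140, 141 to 210, 211 to 280 and 351 to 420 below 1 in each of the 4 libraries. G40 alone placed the first bin above 1, as its ratio was 0.632 without that position. Without their highest positions, C282 and C506, positions 281 to 350 and 491 to 560 had ratios of 1.18 and 1.15. The last bin had the lowest coverage, with a median of 36460 reads.

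**Figure D5:**
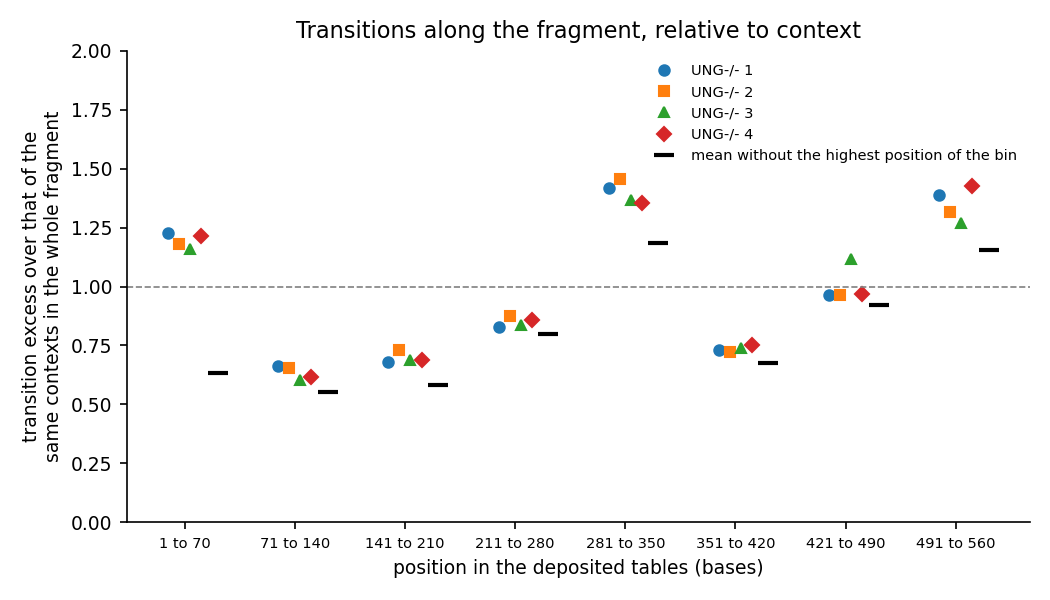
Transition excess in 8 bins of 70 positions divided by the excess of the same contexts over the whole fragment, against the position in the deposited tables. Symbols are the 4 UNG-/- libraries, black dashes the mean without the highest position of the bin, and the grey line marks 1. The first bin falls below 1 without G40, while those starting at 281 and 491 stay above it.

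UNG-/- libraries differed in level and, near the polymorphic positions, in pattern. At the 74 hotspot positions the median ratio to the mean of the 4 libraries was 1.13, 1.20, 0.932 and 0.717 for libraries 1 to 4. At 11 hotspot positions within 10 bases of a polymorphic position, library 3 was 1.42-fold the mean of the other libraries (median), and at the 63 farther away 0.870-fold. The part of the second bases in this was not tested.

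C:G to G:C and C:G to A:T substitutions moved at few single positions. C:G to G:C was called higher at 1 of 191 positions (0.524%) and lower at 1 (0.524%). The former was C392, a hotspot position, with 0.934, 0.824, 0.736 and 1.23 per 10000 in UNG-/- libraries against 0.300 and 0.309, a log2 fold change of 1.59 ± 0.478 (SE; edgeR adjusted p = 0.0224). The latter was C224, which lies beside polymorphic position 225. C:G to A:T was higher at 1 of 231 positions (0.433%), C224, and lower at 3 (1.3%), G228, G432 and C479. At C479 it was 1.29, 1.61, 1.21 and 1.63 against 3.67 and 3.76, a log2 fold change of -1.38 ± 0.303 (adjusted p = 0.0017). G228 lies 3 bases from position 225, and at G432 and G228 the log2 fold changes were -1.08 and -0.87. At 98 of 231 positions (42.4%) all UNG-/- libraries lay below both AID-/- libraries in C:G to A:T, against 12.7% of all features. At A:T positions 0 of 256 transition features were called in either direction by edgeR (4 higher and 5 lower at an unadjusted p of 0.05, 0 with DESeq2, 2 higher and 1 lower with limma). A:T transversions were called higher for 11 of 271 features (4.06%) and lower for 1 (0.369%).

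The spread of transitions over contexts was set beside that in UNG+/+ cells, where UNG can act on the uracil. AGC held 40.2% ± 0.841 of the transition excess without UNG and 50.5% ± 1.41 with it (SD, n = 4 each), whereas AAC held 16.2% ± 0.687 and 10.7% ± 0.722, and TAC 20.1% ± 0.350 and 15.7% ± 0.578. TGC held 9.60% ± 0.314 and 11.5% ± 1.16. The genotypes did not overlap in these 4 contexts or in CAC, CGC and CTC, for which the permutation p was 0.0286 (exact, two-sided, as low as 4 against 4 can go) with an adjusted p of 0.0653 over 16 contexts. So 0 of 16 passed after adjustment, while without subtraction of the AID-/- level 11 of 16 did. With this floor, contexts without overlap pass the adjustment together or not at all, depending on how many reach it. Neither count therefore measures how far the shares differ. The AGC share differed by -11.2 and -9.39 percentage points within replicate numbers 1 and 2 and within 3 and 4, and the AAC share by 5.54 in both. The 16 shares sum to a whole within a library, so a lower share in 1 context goes with higher shares elsewhere.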

How the data were processed

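Reads of an amplified Smu fragment were analysed in 4 UNG-/-, 2 AID-/- and 4 UNG+/+ libraries, grouped and numbered by their titles. Per the labels' protocols, the fragment was amplified for 25 cycles, sheared to 100 to 300 bp and amplified for 10 more cycles. Tools listed in the submitters' processing notes are SAMtools 0.1.11, CASAVA 1.7 and Novoalign 2.07.04. Per the file headers, the deposited counts are reads of each substitution at each position, beside reads that passed a Phred quality above 20. The deposited fraction is, per the file headers, count over passing reads, and it was recomputed here and scaled to 10000 reads. Positions 225, 376, 454, 455 and 486 are polymorphic in the deposited tables and were left out, as was position 560, with under 1000 reads in a library.

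The quasi-likelihood test of edgeR 4.0.16 (R 4.3.3) was applied to the reads of each substitution with log coverage as offset. All 10 libraries entered the fit, features needed 10 or more such reads in 2 or more libraries, and p-values were adjusted over all 1185. DESeq2 1.42.0 and limma 3.58.1 (log2 of the fraction plus 1e-05) were alternatives. Values per library were compared by permutation of group labels (exact, two-sided), computed in Python 3.11.15 with scipy 1.17.1. Other alternatives changed the summary, the positions, the background and the libraries. That fit was tested on simulated data with 200 of 1185 features changed.

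Named positions are the 10 with the highest excess, the highest of each context, the 5 lowest hotspots, the 5 highest coldspots, any C:G position with lower transitions, and up to 5 of each transversion type past the threshold in each direction. Members, lists and tests were chosen with earlier results of these data known. Between UNG-/- libraries the chi-square per position was 4.92 to 70.0, beyond counting error, and between AID-/- libraries it was 1.22. Over all substitutions at all positions the AID-/- pair had 1.72, so it was kept as 2 libraries.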

Additional observations from a re-analysis of the deposited data

Results flagged for a closer look

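In groups of 4 UNG-/- libraries, 60 values were tested for a single library far from the rest by Dixon's test, and 3 stood out, where chance gives about 1 in 20. Transitions at C263, the lowest hotspot position, were 6.31 per 10000 in library 4 and 10.2 to 10.5 in the other libraries. At C481, a CTC coldspot position, they were 5.30 in library 4 and 9.30 to 10.1 in the others. For positions 421 to 490, which hold 2 neighbouring polymorphic positions and position 486, the transition excess relative to context was 1.12 in library 3 and 0.964 to 0.967 in the others.

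Signals also lay outside the main measurement. At A:T positions, 11 of 271 transversion features (4.06%) were called higher in UNG-/- than in AID-/- cells by edgeR, at levels of 0.209 to 2.77 per 10000 in UNG-/- and 0.0154 to 0.254 in AID-/- cells. The highest was T492 (T to A), with 2.37, 3.60, 2.94 and 2.16 against 0.0860 and 0.0634, a log2 fold change of 5.04 ± 0.594 (SE; adjusted p = 1.59e-06), 6 bases from position 486. A single A:T transversion feature was lower, A226 (A to T), beside position 225. At position 225, a polymorphic position left out, a second base made up 48.0% of reads in UNG-/- library 1, 48.2% in library 2 and 45.7% in library 4, against 0.193% in library 3. The AID-/- tables list another base at this position, so their share of a second base is not the same quantity.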

How the results depend on the processing

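Of 120 alternative values for the main results, 115 were scored as the same. For single values compared between UNG-/- and AID-/- libraries, the exact p cannot fall below 0.0667. These could not cross the threshold, so their score says nothing about it. Sizes did change: the C:G to A:T difference was -0.874 and ran from -1.22 to -0.222 over other settings. The context-matched C over G difference between UNG-/- and AID-/- turned from -0.234 to 0.0395 with the median over positions. The log2 ratio of T over other following bases in hotspots was 0.76, 0.31 without the highest position of each context and 0.78 in UNG-/- library 3 alone. The ratio of positions 491 to 560 over 71 to 140, relative to context, was 2.13, and 1.95 without the highest position of each bin. Without AID-/- subtraction 11 context shares passed against UNG+/+ instead of 0, with the background counted in the shares. Both counts turn on how many contexts reach the lowest p the test can give. Leaving out each library in turn gave 175 to 196 called positions, a transition excess of 23.7 to 27.9, a C:G to G:C difference of -0.0764 to -0.0283, a C:G to A:T difference of -1.09 to -0.727 and a hotspot difference of 2.25 to 2.37. Other tools, filters and blocks gave 178 to 198 called positions. The transition excess depended more on other settings, which changed the summary, the positions, the background or the libraries. It was 25.5 in the main setting and ran from 4.93 to 29.7 over these. The lowest value came from taking the median over positions in place of the mean. Whether replicate numbers pair libraries was read from the correlation of deviations between UNG-/- and UNG+/+ libraries of a number, which was 0.674, -0.0226, 0.450 and 0.338, so they were not taken as pairs. With the replicate number as a block 196 positions were called. Pairing numbers 1 and 2 gave a transition excess of 29.7, a hotspot difference of 2.31, a strand difference of -0.201, and C:G to G:C and C:G to A:T differences of -0.0908 and -1.22. Paired by number, 0 context shares passed, as 4 pairs cannot give an exact p under 0.125. Depth limits the last bases of the fragment, and 2 AID-/- libraries limit every test of single values.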
